A study of Homo sapiens with 6 samples.

Results

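The 10 genes described here encode heat shock chaperones of the cytosol and the mitochondria: HSPA8, HSPA1A and HSPA1B of the HSP70 family, their partners HSPH1 and DNAJB1, the HSP90 pair HSP90AA1 and HSP90AB1, the small heat shock protein HSPB1, and the mitochondrial pair HSPD1 and HSPE1. They were taken by gene symbol from the 58735 genes of the deposited expression table, and each of the 10 symbols matched 1 gene. Polyadenylated RNA was sequenced from HEK293 cells, an established line from human embryonic kidney, engineered for stable expression of tensin 2 (TNS2) in which 1 tyrosine was replaced. The line named Y483E carries glutamate there, which is often used to resemble a phosphorylated residue, and the line named Y483F carries phenylalanine, which cannot be phosphorylated. Each line had 3 libraries, named Y483E replicates 1, 2 and 3 and Y483F replicates 1, 2 and 3, and no library of cells without the construct or with unchanged tensin 2 was analysed here. The labels state no heat or drug treatment, do not name the promoter of the construct, and speak of 2 cell lines without saying how many clones each comprised, so what belongs to the substitution and what to the line cannot be told apart. The titles call the replicates biological and give no separate cultures, so p-values measure the spread between these libraries.

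Chaperones bind unfolded stretches of other proteins and help them fold, or hold them until they can. HSP70 proteins take up and release clients in cycles that J-domain proteins such as DNAJB1 start and exchange factors such as HSPH1 complete, HSP90 acts on later folding stages of kinases and receptors, HSPB1 holds unfolded protein without using ATP, and HSPD1 with its lid HSPE1 forms the folding chamber of the mitochondrial matrix. When unfolded protein accumulates, the factor HSF1 is released from chaperones, forms trimers and binds heat shock elements, which are inverted repeats of the unit GAA, before these genes. HSPA8 and HSP90AB1 are known as the constitutive forms, and HSPA1A, HSPA1B and HSP90AA1 as the inducible ones.

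All 10 genes matched the RefSeq promoter table (GRCh38.p14), in 16 windows of 250 bases before an annotated start. A heat shock element of 3 units was searched as GAANNTTC followed after any 2 bases by GAA, or as its reverse complement, so both strands are covered. A motif is called present before a gene here when any window of that gene held it. The element was present before 4 of the 10 genes, HSPD1, HSP90AB1, HSPA8 and HSP90AA1, and before 0.557% of the 27305 genes in the table. These elements are shown because heat shock elements are what the family is known for. Capitals mark the 3 units with the bases between them, on the strand of each gene.

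HSP90AB1, chr6:44247772-44247796, plus strand: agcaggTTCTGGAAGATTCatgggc
HSP90AB1, chr6:44247825-44247849, plus strand: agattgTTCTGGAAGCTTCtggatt
HSP90AA1, chr14:102087114-102087138, minus strand: gggttcTTCCGGAAGGTTCgggagg
HSPA8, chr11:123062348-123062372, minus strand: gagcttGAAAGTTCCAGAAcgctgc
HSPA8, chr11:123062173-123062197, minus strand: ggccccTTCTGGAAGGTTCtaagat
HSPD1, chr2:197500062-197500090, minus strand: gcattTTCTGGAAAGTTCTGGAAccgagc

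HSP90AB1 and HSPA8 each held 2 such elements, and in HSPD1 a pair of overlapping elements formed 1 run of 4 units. All of these elements lay inside the annotated bounds of their genes. In HSP90AB1, HSP90AA1 and HSPD1 they were found only before the last of the annotated starts of the gene. The elements of HSPA8, HSP90AA1 and HSPD1 overlapped exons of transcripts with earlier starts in GENCODE 29, and those of HSP90AB1 overlapped none. The shorter pair GAANNTTC, which is its own reverse complement and lies inside every element of 3 units, was found before 8 of the 10 genes and before 7.05% of all genes in the table. The pair TTCNNGAA, also its own reverse complement, was found before 4 of the 10 and before 8.12% of all. HSPA1A, HSPA1B, DNAJB1 and HSPB1 held GAANNTTC without an exact match of the longer element. The search required exact letters, so elements with a unit that differs by a base were not counted. The windows of HSPE1 and HSPH1 held neither pair, which says only that these letters are not in those 250 bases. A GC box (GGGCGG or CCGCCC) lay before 9 of the 10 genes against 46.2% of all, and a CCAAT box (CCAAT or ATTGG) before 5 of the 10 against 37.0%. The TATA box (TATAAA or TTTATA) was present in 2 of the 10, HSPA1A and HSPA1B, against 13.0% of all. A match is a description of letters, not evidence of binding, and no binding was measured in these cells.

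**Figure D1:**
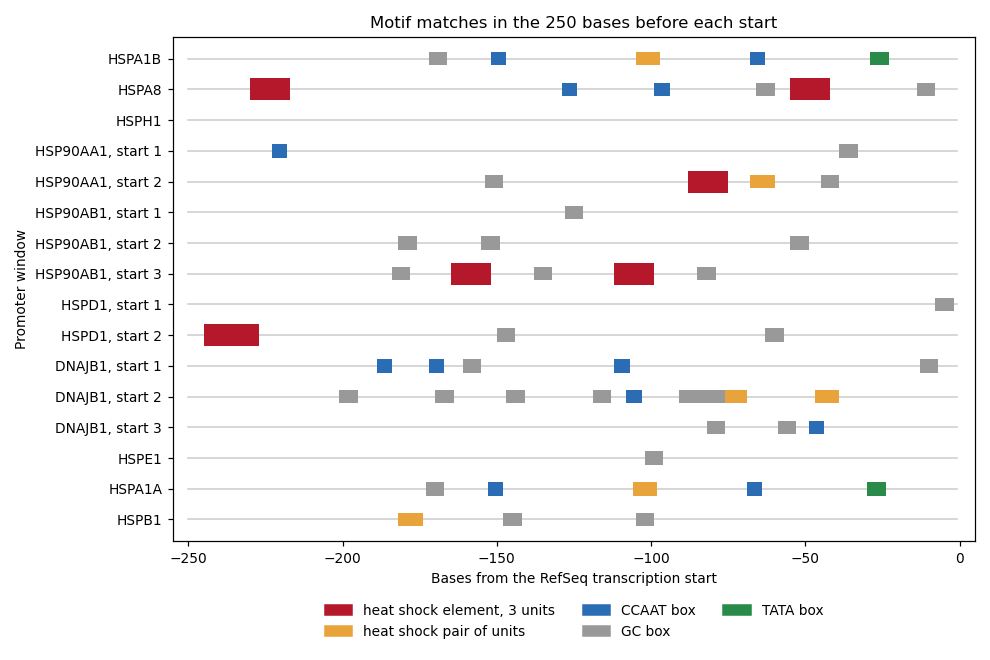
Positions of motif matches in the 16 promoter windows of the 10 genes, in bases from the RefSeq start (horizontal axis), with 1 line per start; matches of a pair inside a longer element are drawn as the longer element. Red bars, the elements of 3 units, are seen in 4 windows, and the window of HSPH1 holds no match of any motif searched.

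HSPA1A and HSPA1B are neighbours on chromosome 6 and are nearly the same gene. Their promoter windows had 235 of 250 bases in common (94%), and their coding sequences 1919 of 1923 (99.8%). The parts of both windows that lie before the first annotated exon are shown to make that likeness visible. Capitals mark GAANNTTC.

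HSPA1A, chr6:31815293-31815463, plus strand: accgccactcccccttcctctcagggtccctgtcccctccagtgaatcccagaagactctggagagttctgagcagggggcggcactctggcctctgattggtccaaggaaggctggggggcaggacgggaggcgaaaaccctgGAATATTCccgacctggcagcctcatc
HSPA1B, chr6:31827488-31827734, plus strand: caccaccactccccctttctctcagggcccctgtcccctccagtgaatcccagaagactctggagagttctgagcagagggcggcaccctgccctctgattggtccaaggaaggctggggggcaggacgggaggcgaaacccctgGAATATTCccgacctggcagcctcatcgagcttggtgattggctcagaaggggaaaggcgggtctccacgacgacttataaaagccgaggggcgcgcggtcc

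The likeness bears on the counts. Of all 100-base stretches of the annotated transcripts, 67.3% in HSPA1A and 72.7% in HSPA1B occurred word for word in another gene, for both mostly in the other of the pair. In HSPE1 the share was 13.2%, and in the remaining 7 genes it was at most 4.93%. How the authors assigned reads that fit both copies, and how strand was treated, are not given in the sources used here, so the split between HSPA1A and HSPA1B is uncertain, and values for the sum of the pair are given beside those of each gene. The protocol text allows for stranded or unstranded libraries. Exons of HSPE1 (23.9% of its bases) overlapped HSPD1 or HSPE1-MOB4, and 36.5% of the HSPA1B exons overlapped AL671762.1, a gene listed at 0 in all 6 libraries.

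Whole reads could be recovered from the deposited FPKM values, which are read counts scaled to gene length and library size. They summed to 17204498 to 23284592 per library. As a check of the cell type, NEFL, a neurofilament gene long known in HEK293, stood at 45.6 ± 5.65 (Y483E) and 39.6 ± 1.51 FPKM (Y483F; SD, n = 3), while the other 3 markers of the line, PAX2, LHX1 and NEFM, were low, with group means of at most 1.11 FPKM. Of 7 markers of blood, endothelial, fibroblast and liver cells, none exceeded 0.0722 FPKM in any library, and PTPRC and CD3E had 0 reads. Their summed level was 0.0432 to 0.120 FPKM in Y483E and 0.0687 to 0.0993 in Y483F. Replicates 1, 2 and 3 of each line carry the numbers 1, 4 and 5 in the submitters' names, which the labels do not explain.

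The 10 genes fell into 2 tiers of abundance, the same in both lines. The upper tier comprised the HSP90 pair, HSPA8, HSPD1 and HSPA1B, with means over the 6 libraries between 217 and 914 FPKM. These 5 genes ranked 18 (HSP90AB1), 35 (HSP90AA1), 94 (HSPA8), 107 (HSPD1) and 144 (HSPA1B) among the 12833 genes tested, those that averaged 1 FPKM or more. The lower tier comprised DNAJB1, HSPE1, HSPH1, HSPA1A and HSPB1, with means between 14.4 and 35.9 FPKM and ranks from 1299 to 3460. The lowest HSPA1B library, at 158 FPKM, was still above the highest DNAJB1 library at 37.5 FPKM. Within the order of levels, the ranges of HSPA8 and HSPD1 overlapped, although HSPA8 was the higher in 6 of 6 libraries. The neighbours HSPE1 and HSPH1, HSPH1 and HSPA1A, and HSPA1A and HSPB1 also overlapped, with the gene of higher mean above the other in 4, 5 and 4 of the 6 libraries. All other neighbours were apart in every library. The places of HSPA1A and HSPA1B in this order rest on the uncertain split of their reads. The order of all the genes also rests on the gene lengths used for FPKM. HSPH1, for example, had 3763 to 4712 reads, more than DNAJB1 (2199 to 3003) and HSPE1 (880 to 1289). The summed FPKM of the 10 genes ran from 2413 in Y483E replicate 2 to 2815 in Y483F replicate 1.

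**Figure D2:**
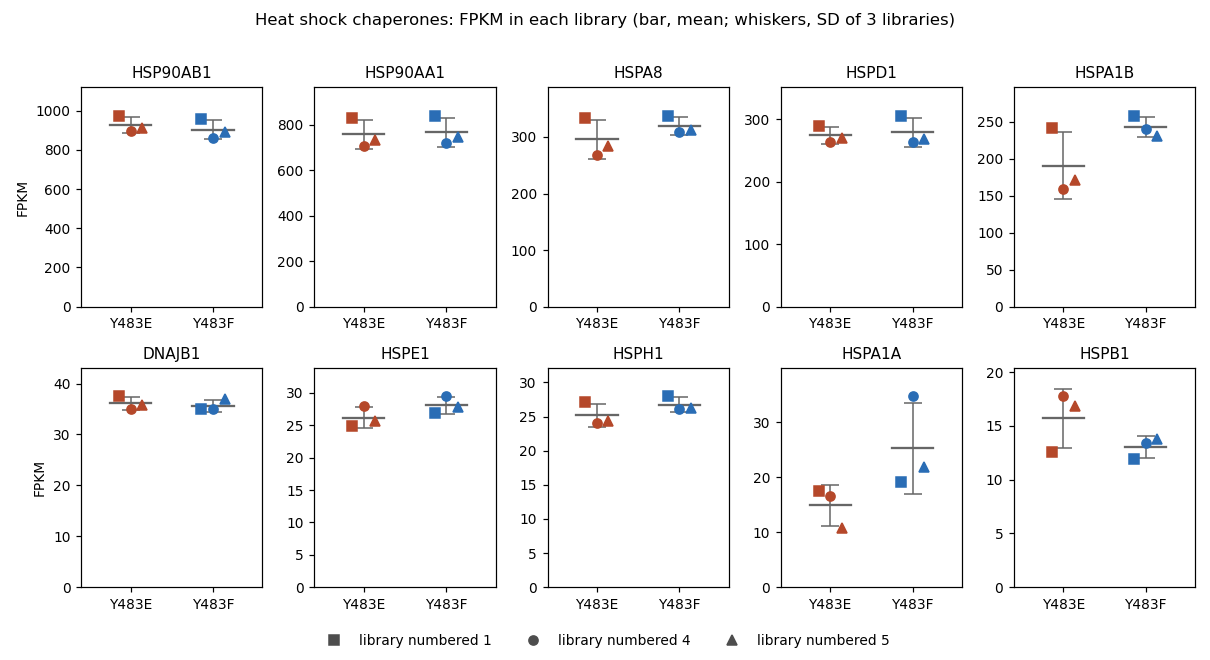
FPKM of each gene (vertical axes, from 0 and different for each gene) in the 3 libraries of each line, with the mean as a bar and the SD as whiskers; point shapes give the submitters' library number. HSPA1A is the gene whose lines do not overlap, and for HSPA1B, HSPA8, HSPH1, HSPD1 and the HSP90 genes the squares of number 1 lie above the other libraries.

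Between the lines, none of the 10 chaperone genes passed the test. In limma on log2(FPKM + 1), 0 of 10 had a Benjamini-Hochberg adjusted p under 0.05, where the background was 0% of the 12833 genes tested (edgeR called 0 of 10 against 0.0438% of genes, and DESeq2 0 of 10 against 1.29%). At an unadjusted p under 0.05 in limma there were 2 of 10, HSPA1A and HSPA1B, both lower in Y483E, against 12.2% of all genes tested. Which genes these were depended on the method. In DESeq2 HSPA1A (lower, unadjusted p 0.0263) and HSPB1 (higher, 0.0407) were under 0.05, and HSPA1B (0.081) was not. The limma difference Y483E minus Y483F was above 0 for 3 of the 10 genes (52.8% of all genes tested) and below 0 for 7, with a median of -0.055 on the log2 scale against 0.0070 over all genes tested. Quantile normalization turned the sign of DNAJB1 (to -0.0021) and of HSP90AA1 (to 0.029), both within their SE of 0. The lines did not overlap for 1 of 10, HSPA1A, which was lower in every Y483E library, where 7.37% of all genes tested were lower in Y483E without overlap and 17.1% were apart in either direction. The genes follow by role.

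HSPA8, the constitutive HSP70 of the cytosol (chr11:123057489-123063230, minus strand), stood at 334, 269 and 284 FPKM in Y483E replicates 1, 2 and 3 and at 337, 308 and 313 FPKM in Y483F replicates 1, 2 and 3. Both replicates 1 were the highest of their line, Y483E replicates 2 and 3 were the lowest of all 6, and the lines overlapped. The means were 296 ± 34.0 and 319 ± 15.7 FPKM (SD, n = 3 each), and the log2 difference was -0.12 ± 0.086 (SE; limma, adjusted p 0.615).

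HSPA1B, an inducible HSP70 gene (chr6:31827735-31830255, plus strand), stood at 242, 158 and 171 FPKM (Y483E) and 258, 241 and 231 FPKM (Y483F), in the same order of replicates. Y483E replicates 2 and 3 were the 2 lowest libraries, and Y483E replicate 1 lay among the Y483F libraries, so the lines overlapped. The means were 190.4 ± 45.0 and 243 ± 13.6 FPKM, and the log2 difference of -0.37 ± 0.15 did not pass (limma, adjusted p 0.383). Without Y483E replicate 1 it was -0.57 and passed in edgeR (adjusted p 0.00633, with 1.06% of genes called), and in limma it was -0.56 and did not (adjusted p 0.0855), while without Y483E replicate 2 it was -0.25 in edgeR (adjusted p 0.539) and -0.26 in limma (0.656). With array weights limma also called it (-0.43, adjusted p 0.0326, 14.7% of genes called), as did edgeR with a term for the library number (-0.38, adjusted p 0.0427, 1.02% of genes called).

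HSPA1A (chr6:31815464-31817946, plus strand), its near copy, was assigned fewer reads than HSPA1B in every library, by a split whose method is unknown. It stood at 17.5, 16.5 and 10.7 FPKM (Y483E) and 19.2, 34.7 and 21.8 FPKM (Y483F), from 488 to 1549 reads. Every Y483E library was below every Y483F library, the nearest being the 2 replicates 1, and Y483F replicate 2 and Y483E replicate 3 were the extremes. The means were 14.9 ± 3.70 and 25.2 ± 8.29 FPKM, and the log2 difference of -0.71 ± 0.25 was the greatest in size of the 10 but did not pass (limma, adjusted p 0.352). The authors' deposited table lists HSPA1A at a log2 fold change of -0.76 with an adjusted p of 0.343. Without Y483F replicate 2 the limma difference was -0.46 (adjusted p 0.703), and without Y483F replicate 1 it was -0.92 in edgeR, which then called it (adjusted p 0.0157, with 6.1% of genes called), and -0.87 in limma, which did not (adjusted p 0.130).

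The share of reads on mitochondrially encoded genes was lowest and highest in the same libraries as HSPA1A. It was 2.11%, 2.15% and 1.23% in Y483E replicates 1, 2 and 3 and 2.05%, 3.27% and 3.11% in Y483F replicates 1, 2 and 3, with 95% Wilson intervals at most 0.0165 percentage points wide, which cover counting error only. Its part in the HSPA1A difference was not tested.

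Since reads can be shared within the pair, HSPA1A and HSPA1B were also summed. The sum was 259, 175 and 181 FPKM (Y483E) and 277, 275 and 253 FPKM (Y483F). Every Y483E library lay below 2 of the Y483F libraries, and Y483E replicate 1 lay above Y483F replicate 3, so the lines overlapped. The means were 205 ± 47.0 and 268 ± 13.5 FPKM, a log2 ratio of means of -0.39. The ratio of constitutive HSPA8 to this sum was 1.29, 1.54 and 1.57 in Y483E and 1.22, 1.12 and 1.24 in Y483F (1.46 ± 0.15 and 1.19 ± 0.063, n = 3 each). These ratios did not overlap between the lines, and the closest were Y483E replicate 1 and Y483F replicate 3. All other ratios computed here overlapped. The share of gene ratios that would be apart in this way was not computed, and 17.1% of single genes tested were apart in either direction. HSPA1A over HSPA1B was 0.0724, 0.104 and 0.0624 in Y483E and 0.0744, 0.144 and 0.0946 in Y483F, which overlapped.

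Of the HSP70 partners, HSPH1, an HSP110 protein that exchanges the nucleotide of HSP70 (chr13:31134974-31162388, minus strand), stood at 27.1, 24.1 and 24.3 FPKM (Y483E) and 27.9, 26.1 and 26.2 FPKM (Y483F). Its libraries ran in the same pattern as those of HSPA8 and HSPA1B, with Y483E replicates 2 and 3 lowest and both replicates 1 highest. The log2 difference was -0.09 ± 0.057 (limma, adjusted p 0.579). DNAJB1, the J-domain protein that delivers clients to HSP70 (chr19:14514770-14529770, minus strand), was the steadiest of the 10, at 37.5, 35.1 and 35.7 FPKM (Y483E) and 35.0, 35.0 and 36.9 FPKM (Y483F). Its highest library was 1.07 times its lowest, against 3.25 times for HSPA1A, 1.63 for HSPA1B and 1.49 for HSPB1. The log2 difference of 0.02 ± 0.045 was smaller than its SE (limma, adjusted p 0.896).

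HSP90AB1, the constitutive cytosolic HSP90 (chr6:44246166-44253888, plus strand), had the highest FPKM of the 10, at 973, 894 and 910.1 FPKM (Y483E) and 956, 863 and 891 FPKM (Y483F). HSP90AA1, the inducible form (chr14:102080738-102139699, minus strand), stood at 829, 707 and 733 FPKM (Y483E) and 838, 718 and 743 FPKM (Y483F). HSP90AA1 had more reads than HSP90AB1, 67780 to 86533 against 46240 to 62117. Their order in FPKM therefore rests on gene lengths of 5248 and 2980 bases. In both genes the replicates 1 were the 2 highest libraries and the lines overlapped throughout. The log2 differences between the lines were 0.04 ± 0.064 for HSP90AB1 (limma, adjusted p 0.848) and -0.02 ± 0.086 for HSP90AA1 (adjusted p 0.943). The ratio of HSP90AA1 to HSP90AB1 stayed between 0.791 and 0.877 in the 6 libraries and overlapped between the lines.

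HSPB1, the small heat shock protein also called HSP27 (chr7:76302544-76304295, plus strand), stood at 12.6, 17.7 and 16.8 FPKM (Y483E) and 11.9, 13.4 and 13.8 FPKM (Y483F), from 333 to 676 reads. The 2 replicates 1 were the lowest libraries, Y483E replicates 2 and 3 the highest, and the lines overlapped. The means were 15.7 ± 2.74 and 13.0 ± 0.999 FPKM, and the log2 difference of 0.24 ± 0.12 did not pass (limma, adjusted p 0.470). The authors' deposited table lists HSPB1 at a log2 fold change of 0.27 with an adjusted p of 0.408.

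HSPD1, the subunit of the mitochondrial folding chamber (chr2:197486581-197516737, minus strand), and HSPE1, its lid (chr2:197499994-197503457, plus strand), are transcribed away from each other, with 104 bases between the nearest RefSeq starts. HSPD1 stood at 289, 263 and 269.7 FPKM (Y483E) and 305, 263 and 269 FPKM (Y483F), with the replicates 1 highest. HSPE1 stood at 24.9, 28.0 and 25.6 FPKM (Y483E) and 26.9, 29.5 and 27.9 FPKM (Y483F), with the replicates 1 lowest in each line. HSPD1 was 8.93 to 11.6 times HSPE1 per length, a ratio that overlapped between the lines and rests on a gene length of 1977 bases for HSPE1, all annotated exons joined. The log2 differences between the lines were -0.02 ± 0.070 for HSPD1 (limma, adjusted p 0.914) and -0.10 ± 0.057 for HSPE1 (adjusted p 0.510).

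**Figure D3:**
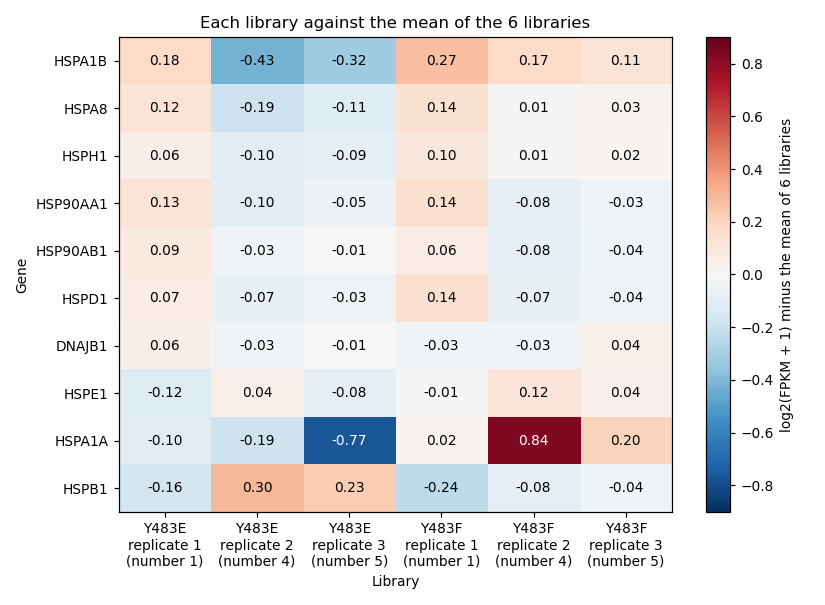
Heat map of log2(FPKM + 1) in each library minus the mean of the 6 libraries, genes in rows and libraries in columns, with the value printed in each cell. HSPA1B, HSPA8 and HSPH1 are below their means in Y483E replicates 2 and 3, HSPB1 is above its mean there, and the widest cells are HSPA1A in Y483E replicate 3 (-0.77) and Y483F replicate 2 (0.84).

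The chaperones were also compared by library number. In 6 of 10 genes, HSP90AB1, HSP90AA1, HSPA8, HSPD1, HSPA1B and HSPH1, both libraries numbered 1 were above the 4 others, where 15.9% of all genes tested showed this, and in 1 of 10, HSPB1, both were below (9.78% of all). A contrast of number 1 with numbers 4 and 5, with the line as a term, was added after the data had been seen. It called 0 of 10 genes in limma (background 0%; 7 of 10 at an unadjusted p under 0.05, against 18.8% of all genes tested) and 0 of 10 in edgeR (background 1.4%; lowest adjusted p 0.0620). The log2 differences were 0.34 ± 0.097 for HSPA1B (limma, adjusted p 0.171), 0.20 ± 0.050 for HSPA8 (0.150), 0.20 ± 0.043 for HSP90AA1 (0.124) and -0.30 ± 0.065 for HSPB1 (0.124). The median over the 10 was 0.12 against 0.0094 over all genes tested. What the number stands for was not tested.

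Within the number 1 pair, the log2 difference between the lines lay between -0.12 and 0.097 for all 10 genes. It was -0.12 for HSPA1A, -0.091 for HSPA1B, -0.015 for HSPA8, -0.045 for HSPH1 and 0.076 for HSPB1, with 1 library per line and no error. Among the libraries numbered 4 and 5 the limma difference was further from 0 than in the number 1 pair for 7 of the 10 genes. It was nearer to 0 for 3, DNAJB1 (-0.022 against 0.097), HSPD1 (0.0040 against -0.079) and HSPE1 (-0.096 against -0.11). Of the 7, HSP90AA1 (-0.021 ± 0.041 against -0.016) and HSP90AB1 (0.041 ± 0.039 against 0.026) were close to their number 1 values. The share of all genes tested that lay further from 0 in this way was not computed. In these 4 libraries limma called 2 of 10 genes, against 5.71% of all genes tested (3.01% lower and 2.7% higher): HSPA1B was lower in Y483E by 0.52 on the log2 scale (-0.52 ± 0.048, adjusted p 0.0251) and HSPB1 was higher (0.32 ± 0.044, adjusted p 0.0347). On the recovered reads of these 4 libraries edgeR called 5 of 10, against 15% of all genes tested (7.98% lower and 7.07% higher). HSPA1A (-1.04 ± 0.18, edgeR adjusted p 0.00137), HSPA1B (-0.52 ± 0.043, 4.7e-06), HSPA8 (-0.17 ± 0.042, 0.0127) and HSPH1 (-0.11 ± 0.035, 0.0407) were lower in Y483E, and HSPB1 (0.34 ± 0.081, 0.0106) was higher. DNAJB1, the HSP90 pair and the mitochondrial pair were not called. HSPA1A and HSPA1B share most of their sequence, so their calls are not independent. In the same fit 0 of 15 other HSP70 and HSP110 proteins, exchange factors and further HSP70 partners were called. The share of mitochondrial reads given above was alike in the number 1 pair (2.11% in Y483E and 2.05% in Y483F) and apart in the libraries numbered 4 and 5 (2.15% and 1.23% against 3.27% and 3.11%), and its part in these calls was not tested. The difference between the number 1 pair and the others was tested as an interaction of line and number in limma, with 1 library per line numbered 1, which is assumed to vary like the rest. It called 0 of 10 genes (background 0.0623%; 2 of 10 at an unadjusted p under 0.05 against 15.9%), with the lowest adjusted p at HSPA1B (0.42 ± 0.082, adjusted p 0.209) and next at HSPB1 (-0.25 ± 0.078, adjusted p 0.262).

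**Figure D4:**
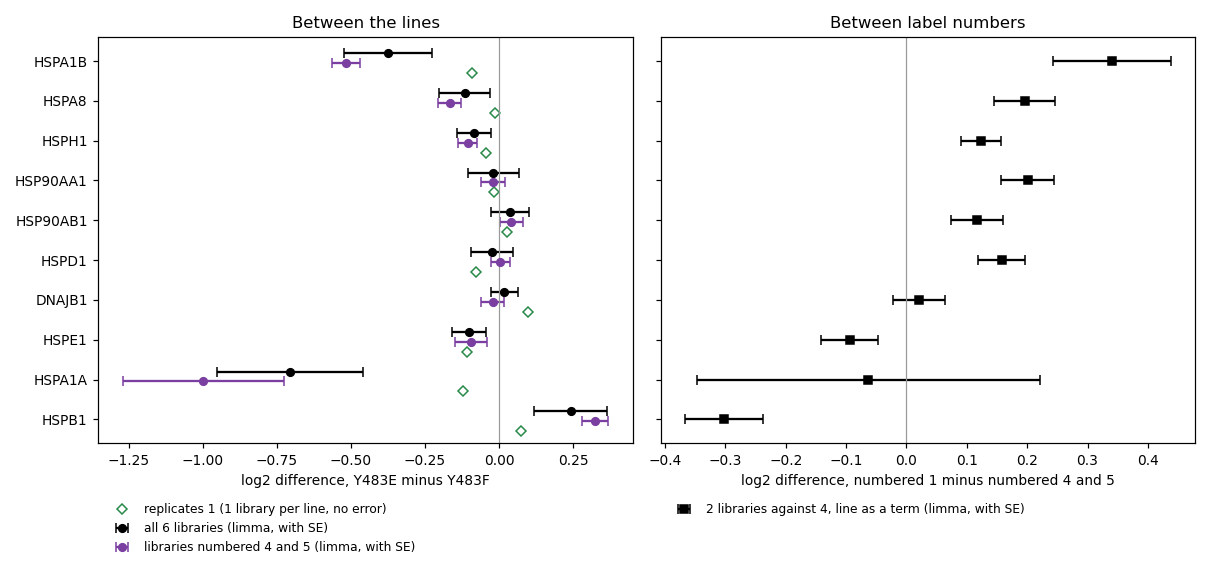
Log2 differences (horizontal axes) of the 10 genes between the lines (left: all 6 libraries and the libraries numbered 4 and 5, limma with SE, and the single pair numbered 1) and between library numbers (right, limma with SE). The points of numbers 4 and 5 lie further from 0 than those of the number 1 pair for 7 of the 10 genes, and nearer for DNAJB1, HSPD1 and HSPE1. The matching share over all genes tested was not computed.

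The other chaperone genes were read from 7 lists of 80 genes, of which 67 passed the expression filter. None was called between the lines in limma (0 of 67, background 0%, with 4 of 67 at an unadjusted p under 0.05, against 12.2% of all genes tested), and none in edgeR (0 of 74). Of the 67, 39 were higher and 28 lower in Y483E, with a median of 0.011. The heat shock factors and regulators had 7 of 8 tested genes higher, with a median of 0.03 and no call. Within that list HSF1, the factor itself, named here outside the rule for naming genes, stood at 16.8 ± 0.47 FPKM (Y483E) and 16.5 ± 0.67 FPKM (Y483F). UBB, a polyubiquitin gene that supplies ubiquitin under stress, averaged 303 ± 5.83 FPKM in the Y483E line and 292 ± 19.2 in the Y483F line.

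Among the other HSP70 and HSP110 proteins, exchange factors and further HSP70 partners, 8 of 13 were higher and 5 lower (median 0.02). ST13, which helps HSP70 keep its client, averaged 91.8 ± 2.39 FPKM in the Y483E line and 89.5 ± 2.09 in the other, and STUB1, the ubiquitin ligase of chaperone clients, at 82.2 ± 1.75 and 78.5 ± 3.18. The other J-domain proteins split into 5 higher and 4 lower, with DNAJA1 at 117 ± 9.02 and 122 ± 6.36 FPKM and DNAJC5 at 28.5 ± 0.61 and 27.9 ± 1.79. The HSP90 co-chaperones split into 7 and 5, with PTGES3, the p23 protein, at 215 ± 5.22 and 223 ± 11.6 FPKM and NUDC at 126 ± 3.50 and 125 ± 3.46. No change was detected in these lists at this depth.

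Of the 9 genes listed by name as other small heat shock proteins, 1 passed the filter, HSPB11, at 10.5 ± 0.62 and 10.3 ± 0.92 FPKM. HSPB9 was next at 0.798 ± 0.086 and 1.04 ± 0.25 FPKM, so HSPB1 had the highest mean FPKM of the small heat shock proteins listed. That order rests on the gene lengths used for FPKM, since HSPB11 had 556 to 843 reads and HSPB1 333 to 676. The cytosolic chaperonin TRiC and its partner prefoldin split into 7 higher and 7 lower (median 0.0015), with CCT3 at 238 ± 9.16 and 236 ± 12.3 FPKM and CCT8 at 237 ± 12.4 and 267 ± 19.6. The other mitochondrial chaperones and proteases split into 4 higher and 6 lower (median -0.0098), with HSPA9, the HSP70 of the matrix, at 91.1 ± 4.80 and 91.5 ± 7.21 FPKM and LONP1, the matrix protease, at 57.1 ± 5.03 and 50.6 ± 1.20. In the libraries numbered 4 and 5, limma called 1 of 67 (background 5.71%), LONP1 (0.24 ± 0.036, adjusted p 0.0384), and edgeR called 7 of 74 (background 15%): LONP1, CLPP and HSBP1 were higher in Y483E and DNAJA3, CLPB, CCT8 and HSF4 were lower. All 7 but LONP1 and CCT8 were chosen for naming after their values were seen.

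In the contrast of number 1 with 4 and 5, the related genes also lay mostly above 0, with 53 of 67 higher, a median of 0.08 and 0 called in limma (22 of 67 at an unadjusted p under 0.05, against 18.8% of all genes tested). The count of genes above 0 was 13 of 14 for TRiC and prefoldin, 9 of 9 for the J-domain proteins, 10 of 12 for the HSP90 co-chaperones, 8 of 10 for the mitochondrial genes and 3 of 8 for the factors and regulators, where 53.3% of all genes tested were above 0.

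**Figure D5:**
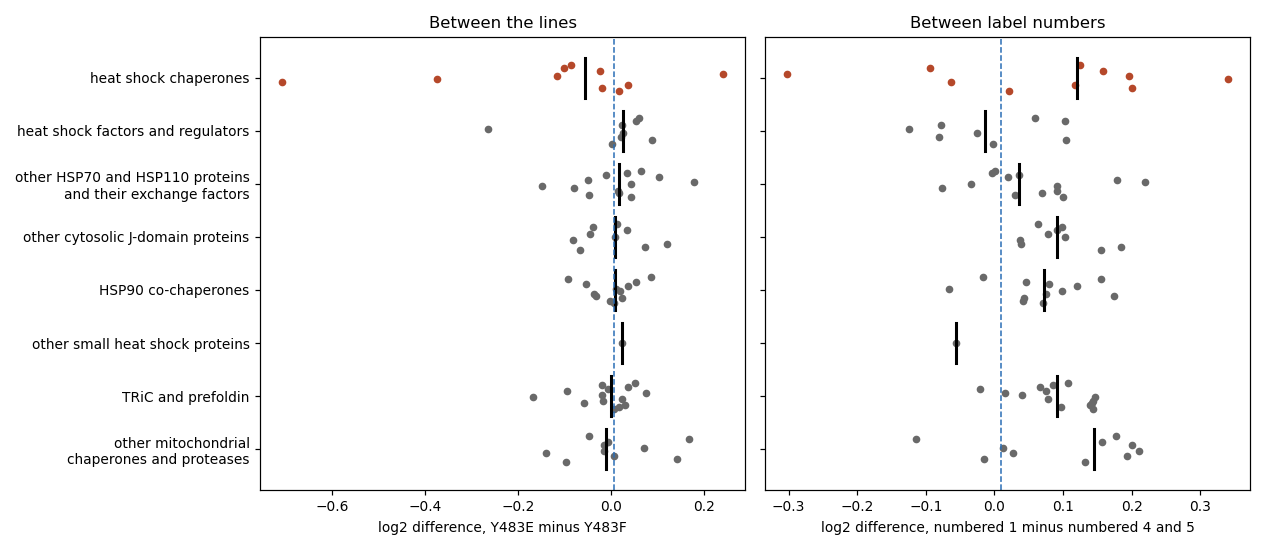
Log2 differences in limma (horizontal axes) of the 10 chaperone genes (red) and of the tested genes of the 7 related lists (grey), with the median of each list as a black bar and the median of all genes tested as a dashed line. Between the lines the list medians lie between -0.055 and 0.03, and between library numbers those of the chaperones, TRiC and prefoldin and the mitochondrial genes lie at 0.12, 0.09 and 0.14.

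The mean centred profile of the 10 genes over the 6 libraries was highest in Y483F replicate 2 (0.080) and lowest in Y483E replicate 3 (-0.12), the extremes of HSPA1A. HSPA1A deviated from its own mean by 0.84 and -0.77 there, so the mean profile leans on that gene and its uncertain read split. By contrast, 6 of the 10 genes were highest in the libraries numbered 1. Among 4479 protein-coding genes averaging 10 FPKM or more, the profiles most like this mean over these 6 libraries were those of CAMKK1 (Pearson r 0.989), SCARB1 (0.981), CD2BP2 (0.974), DPH2 (0.974) and GBA2 (0.972). These values describe 6 points that share their libraries, depth and scaling, and the 5 genes were picked as the highest of 4479.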

How the data were processed

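Poly-A RNA sequencing of 6 HEK293 libraries was analysed. Tools named in the submitters' processing notes, with no roles, were featureCounts 1.5.0-p3, HISAT2 2.0.5 and StringTie 1.3.3b, besides DESeq and DESeq2. Their roles and the genome build are not given in the sources used here. Gene positions of all 10 chaperones in the authors' table equalled GENCODE 29 (GRCh38). The authors deposited FPKM for 58735 genes, with gene lengths. A second deposited table holds 1652 genes with the authors' read counts, their size-factor-scaled signal, log2 fold changes between the lines, with p-values. Its largest unadjusted p-value was 0.04999, and 126 genes had an adjusted p under 0.05.

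FPKM times length times library total gave whole reads within 0.01 for 100% of values above 0, and equalled the listed counts for all 1652 genes. These totals came from those same counts, so that match is largely built in.

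The main test was limma 3.58.1 (lmFit, eBayes with a trend, R 4.3.3), two-sided, on log2(FPKM + 1) for the 12833 genes averaging 1 FPKM or more, with Benjamini-Hochberg adjustment over all of them and a threshold of 0.05. Differences are Y483E minus Y483F on that scale, which understates changes of low genes. edgeR 4.0.16 (quasi-likelihood, TMM) and DESeq2 1.42.0 were run on the recovered reads, 17204498 to 23284592 per library, a depth that limits what low genes can show. The ± given with edgeR values is an approximate SE, the size of the log2 difference divided by the square root of the F statistic. Scripts were tested on simulated data. Alternatives were the pseudocount (0.1), the filter (none, 5 FPKM), scaling, array weights, the replicate block, a number term, libraries 4 and 5 alone, and leaving out each library.

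The 10 members and all lists were chosen with earlier results of these data known. The genes named are the 10 members, up to 4 genes past the threshold or otherwise the 2 most abundant of each related list, the 5 most alike profiles, and the markers. One gene that this rule names is not reported here. The contrast of number 1 with 4 and 5, its interaction with the line, the edgeR number term and edgeR without each library were chosen with the data already seen. Promoters were read from RefSeq on GRCh38.p14. HSPA14 has 2 entries under its symbol, and the one with the described gene was used. Over all genes tested, the correlation of deviations between libraries of the same number in the 2 lines was 0.056, 0.14 and -0.095. Between libraries of different numbers it ran from -0.26 to 0.21. The numbers were therefore not taken as pairing the libraries, and the SEs of the main test include any spread shared by a number. A number term in limma lowered the line SE from 0.12 to 0.061 for HSPB1 and from 0.15 to 0.092 for HSPA1B. For HSPA1A it raised the SE from 0.25 to 0.27, and the lowest adjusted p of the 10 was 0.168 (HSPA1B, limma).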

Additional observations from a re-analysis of the deposited data

How the results depend on the processing

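Each of the 10 log2 differences between the lines was recomputed under 27 alternatives. Of the 270 values, 240 kept their direction and stayed short of the threshold, 11 kept their direction and passed it, and 19 had the opposite sign, all of them in genes with differences near 0. HSP90AA1 was 0.029 with quantile normalization and ran from -0.094 to 0.047 as each library was left out in limma and edgeR. DNAJB1 was -0.0021 with quantile normalization, -0.035 with array weights and, in the libraries numbered 4 and 5, -0.022 in limma and -0.028 in edgeR. Leaving out each library gave it -0.014 to 0.043. HSPD1 was 0.0040 in the libraries numbered 4 and 5 in limma and -0.069 to 0.043 as each library was left out, and HSP90AB1 -0.0050 to 0.078. The number of the 10 genes called was 1 with array weights (HSPA1B, background 14.7%), 2 in the libraries numbered 4 and 5 by limma (5.71%) and 5 by edgeR (15%), 1 by edgeR with a number term (HSPA1B, adjusted p 0.0427, background 1.02%), and 0 to 1 as each library was left out. Those calls were HSPA1B in edgeR without Y483E replicate 1 (background 1.06%) and HSPA1A in edgeR without Y483F replicate 1 (6.1%). Related genes called were 4 of 67 with array weights (background 14.7%), 1 of 67 in the libraries numbered 4 and 5 by limma (5.71%) and 7 of 74 by edgeR (15%), and 0 to 1 as each library was left out (LONP1 in edgeR without Y483E replicate 1, background 1.06%). The causes were not tested. With the replicate number as a block, limma called 0 of the 10 and 0 related genes, and edgeR 0 of 10 (6 of 16491 genes). Every fit kept at least 2 libraries per line. Counts were low for HSPB1 (333 to 676 reads), HSPA1A (488 to 1549) and HSPE1 (880 to 1289), which limits their precision.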
